A study of Glycine max with 54 samples.

Results

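Transcripts of 6 soybean genes of sucrose cleavage, starch and galactinol metabolism were followed in developing seeds. The genes are SS, CIF1, PGM, GBSSIa, BMY2 and GOLS. A probe set was taken as a member when one of these symbols was the only gene symbol that the array annotation gave for it. This rule found 14 probe sets among the 37570 on the array that are not controls. Of these, 12 reached a log2 signal of 5 in at least 3 arrays and were tested together with all other probe sets that did so (26482 in all), and at least 1 probe set of each gene was among the 12. The 2 that were not tested were a second PGM probe set (GmaAffx.69753.1.S1_at), which did not reach 5 in any array, and a BMY2 probe set (GmaAffx.89961.1.S1_at), which reached it in 2.

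Sucrose arriving in the seed is cleaved either by sucrose synthase, which yields fructose and a nucleotide sugar, or by invertases, which yield glucose and fructose. SS is a sucrose synthase gene, and CIF1 encodes a protein inhibitor of cell wall invertase. Phosphoglucomutase (PGM) interconverts glucose 1-phosphate and glucose 6-phosphate and so links sucrose breakdown to both glycolysis and starch. The granule-bound starch synthase GBSSIa makes amylose, and beta-amylases such as BMY2 release maltose from starch, which soybean seeds store for a time. Galactinol synthase (GOLS) makes galactinol from myo-inositol and a sugar nucleotide, the first committed step towards raffinose and stachyose, which legume seeds accumulate late in their development.

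Total RNA of whole field-grown seeds was hybridised to Affymetrix soybean arrays, 1 array per sample, with 3 arrays in each of 18 groups. The varieties Archer and Minsoy were sampled in 2007 and in 2008. A high yield line (genotype 6049-273) and a low yield line (genotype 6049-32), both recombinant inbred lines of the cross of these varieties, were sampled in 2007. Seeds 2 mm long stand at about stage R4 per the labels, seeds of 3.5 mm at about R5, and those of 5-6 mm at early R6, and all lines were sampled at each length. In 2007 every line grew in a single row from which 3 samples per stage were taken. In 2008 the 3 replicates of a line came from plantings made 1 to 2 weeks apart, with the seeds of both rows pooled. High and low yield were each represented by 1 line in 1 row. A difference between them belongs to that pair of lines and cannot be told apart from a difference between their rows. The same holds for rows of Archer and Minsoy in 2007.

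Values are log2 signals, and a difference of 1 is a doubling. The parents of 2007, the parents of 2008 and the recombinant lines are 3 sets of 18 arrays with separate scales. Levels are therefore compared only within a set. A change between years compares differences that were each taken within a set. Year, set of arrays and planting layout go together in the parents, so their parts in such a change cannot be told apart. A difference was called when its adjusted p from limma, fitted over all tested probe sets, was under 0.05. Each array was given a stage score from other probe sets, chosen in the other sets, and 3 arrays went against their stage label. Minsoy 2008 replicate 1 had a score of 2.39 at 2 mm and of -1.48 at 5-6 mm, and the low yield line replicate 1 had 3.60 at 2 mm, whereas the other 2 mm arrays of the low yield line were at -3.04 and -3.58. Several results that rest on these arrays are given with and without them, and the rest with all arrays. Replicate 3 of the low yield line at 3.5 mm is named for that line in its title and genotype but for the high yield line in its description, and the title was followed. A seed storage list of 6 genes (GY1, GY2, GM2S-1, CG-1, KTI1 and LOX2) served as markers of the filling embryo. In the parents of 2007 their mean log2 signal was between 3.26 and 15.0 (median 13.5) over the 5-6 mm arrays. Over the 2 mm arrays it was between 1.96 and 2.01, at the floor of the scale. In 2008 it was between 2.48 and 14.4 (median 13.5) at 5-6 mm and between 2.21 and 14.2 (median 2.28) at 2 mm. Recombinant arrays lay between 4.97 and 13.8 (median 12.0) at 5-6 mm and between 1.95 and 11.9 (median 5.09) at 2 mm. Marker lists of other tissues moved as well. In the parents of 2007, between 5-6 mm and 2 mm, 2 of 3 seed coat genes were higher and 1 lower (median difference 4.17). On a vegetative storage list (VSPA, VLXB and LOXB1), 1 of 3 genes was higher and 2 lower (median -3.30). In 2008 and in the recombinant lines the seed coat medians were 1.49 and 0.91 with 0 of 3 called by limma. The vegetative storage medians were -1.37, with 1 of 3 lower, and -2.24, with 1 higher and 2 lower. Of 2 photosynthesis genes 1 was called lower in each set. The medians were -0.59 in the parents of 2007, -0.25 in those of 2008 and -0.63 in the recombinant lines. The part of these transcripts in the stage contrasts below was not tested. In whole seeds, fewer cells of a type and less RNA per cell cannot be told apart.

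Between 2 mm and 5-6 mm seeds, phosphoglucomutase fell and probe sets of granule-bound starch synthase rose in all 3 sets. Sucrose synthase and the invertase inhibitor rose in the parents of 2007 and in the recombinant lines, and neither was called in the parents of 2008 with all arrays. In the parents of 2007, 10 of the 12 probe sets were called higher at 5-6 mm and 1 lower, where 53.4% of all probe sets tested were called, 22.6% higher and 30.8% lower. The median difference was 1.66 over the 12 member probe sets and -0.06 over all tested. In the parents of 2008, 3 were higher and 1 was lower, where 11.2% of all were called, 6% higher and 5.18% lower. Without the arrays that went against their label, 5 were higher and 1 was lower in 2008, where 34.2% of all were called, 15% higher and 19.2% lower. Among the recombinant lines 7 were higher and 1 was lower, where 39.3% of all were called, 15.3% higher and 24% lower. Without the low yield array in question these counts were 8 and 1, where 46.8% of all were called, 18% higher and 28.8% lower. The median differences were 0.83 over the members in both of these sets, and -0.05 and -0.06 over all probe sets in the parents of 2008 and the recombinant lines.

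**Figure D1:**
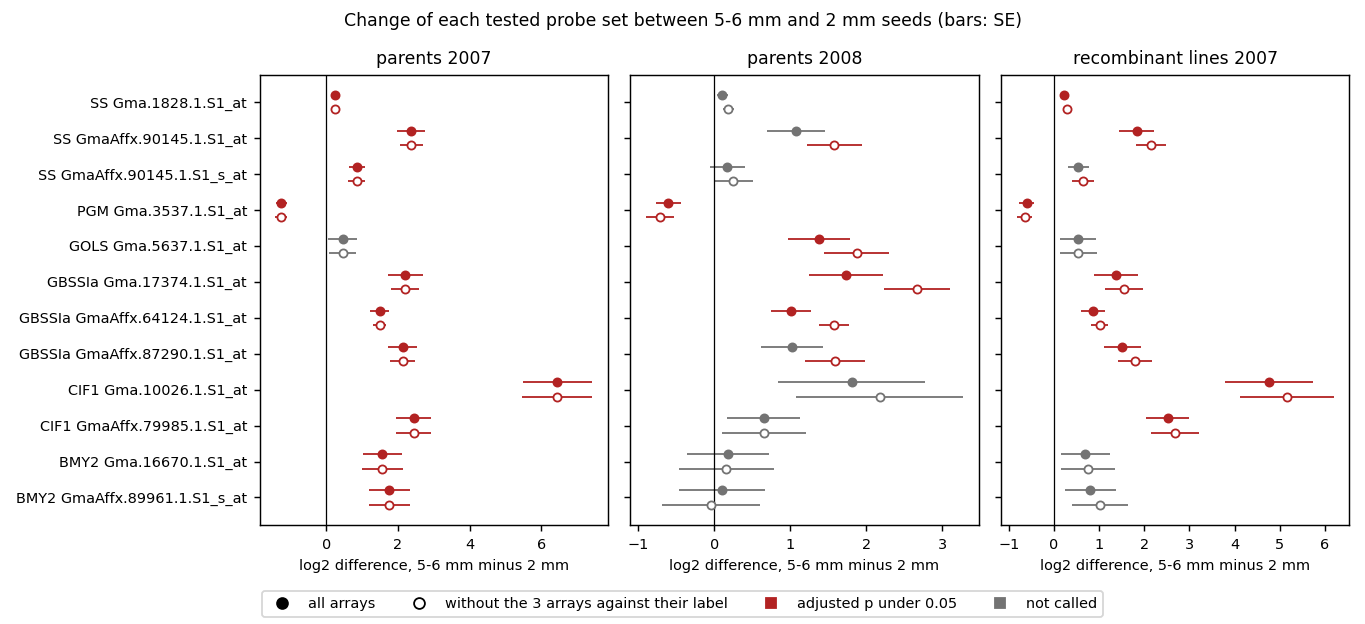
Log2 difference between 5-6 mm and 2 mm seeds (x axis) for each of the 12 tested probe sets (rows), averaged over both lines of each set, with bars for the SE. Filled points use all arrays, open points leave out the 3 arrays against their stage label, and red marks an adjusted p under 0.05; PGM is the only member below 0 in every set, and with all arrays Gma.10026.1.S1_at of CIF1 has the largest difference and the widest bar of each set.

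SS was measured by 3 probe sets that differed in how far they moved. The clearest change was in GmaAffx.90145.1.S1_at. In Archer of 2007 it read 11.63, 11.61 and 11.74 at 2 mm, 12.53, 12.47 and 13.49 at 3.5 mm, and 13.60, 14.45 and 14.23 at 5-6 mm. In Minsoy of that year it read 11.50, 12.27 and 11.71 at 2 mm, 13.30, 13.15 and 13.67 at 3.5 mm, and 13.85, 14.32 and 14.20 at 5-6 mm. Within each variety every array of a later stage lay above every array of the stage before it. Averaged over both varieties the difference was 2.37 (SE 0.38, adjusted p = 3.91e-06), and the step between 3.5 mm and 2 mm, at 1.36 (SE 0.38, adjusted p = 0.0095), was called in its own right, in a comparison where 20.9% of all probe sets were called. The following step, 5-6 mm against 3.5 mm, was 1.01 (SE 0.38, adjusted p = 0.054).

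In 2008 the same SS probe set read 12.04, 12.12 and 12.27 in Archer at 2 mm, 13.39, 12.55 and 12.50 at 3.5 mm, and 14.20, 13.85 and 14.28 at 5-6 mm, and the stages did not overlap. Minsoy of 2008 read 14.06, 12.35 and 12.51 at 2 mm, 13.27, 12.85 and 12.94 at 3.5 mm, and 12.22, 13.49 and 13.74 at 5-6 mm. The highest 2 mm value and the lowest 5-6 mm value of Minsoy were those of the arrays against their label. The difference over both varieties was 1.08 (SE 0.38, adjusted p = 0.0583) with them and 1.58 (SE 0.36, adjusted p = 0.000782) without them. Of the recombinant lines, the high yield line had 13.26, 13.83 and 13.73 at 5-6 mm against 10.62, 10.86 and 11.06 at 2 mm, and the low yield line had 12.49, 13.47 and 13.48 against 13.52, 11.63 and 11.58. The recombinant difference was 1.83 (SE 0.38, adjusted p = 0.000257), and 2.15 (SE 0.34, adjusted p = 3.45e-06) without the low yield array at 13.52.

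The other SS probe sets had smaller differences. GmaAffx.90145.1.S1_s_at, a probe set whose suffix marks probes shared between transcripts, rose by 0.85 (SE 0.23, adjusted p = 0.00192) in the parents of 2007. It differed by 0.17 (adjusted p = 0.671) in those of 2008 and by 0.54 (adjusted p = 0.0558) in the recombinant lines, where it was called at 0.65 (adjusted p = 0.0276) without the array against its label. Gma.1828.1.S1_at was near the top of the scale, between 15.35 and 15.80 in all 18 arrays of the parents in 2007, and at most 14.50 in the recombinant lines. Its differences of 0.24 (SE 0.07, adjusted p = 0.00621) in the parents of 2007 and 0.23 (SE 0.07, adjusted p = 0.0139) in the recombinant lines were called and that of 0.10 (adjusted p = 0.379) in 2008 was not. After quantile normalisation within the set, the 2007 value was 0.10 (adjusted p = 0.236), and the recombinant value was 0.17 (adjusted p = 0.0769) without the low yield 2 mm replicate 3.

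With all arrays, the largest difference between 5-6 mm and 2 mm among the 12 probe sets was in Gma.10026.1.S1_at of CIF1 in each set, although it was not called in 2008. This probe set was near the floor at 2 mm in 2007, at 2.13, 2.15 and 2.05 in Archer and at 1.96, 2.58 and 2.11 in Minsoy. At 3.5 mm the arrays were spread widely, at 3.70, 3.47 and 7.88 in Archer and at 7.73, 3.76 and 10.24 in Minsoy. At 5-6 mm they read 7.91, 7.74 and 8.86 in Archer and 9.43, 8.18 and 9.53 in Minsoy. The 2 mm arrays stayed below all others, while 3.5 mm and 5-6 mm overlapped. The difference of 5-6 mm from 2 mm was 6.44 (SE 0.97, adjusted p = 1.44e-06), and since the 2 mm values lie near the floor its exact size is not fixed. The second CIF1 probe set, GmaAffx.79985.1.S1_at, was at 6.69 or more in these arrays and rose by 2.44 (SE 0.49, adjusted p = 7.44e-05). In both probe sets the step from 2 mm to 3.5 mm was called, at 3.97 (adjusted p = 0.00332) and 1.90 (adjusted p = 0.0049), and the following step, at 2.48 (adjusted p = 0.0621) and 0.54 (adjusted p = 0.446), was not.

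In 2008 the CIF1 differences were 1.81 (SE 0.97, adjusted p = 0.22) and 0.65 (SE 0.49, adjusted p = 0.404), and neither was called. The arrays of Gma.10026.1.S1_at read 5.57, 7.04 and 7.29 in Archer at 5-6 mm against 3.48, 9.15 and 4.72 at 2 mm, and 5.57, 4.77 and 9.14 in Minsoy against 4.29, 2.93 and 3.98. Archer 2 mm replicate 2, at 9.15, was higher than every other parental array of 2008 in this probe set and, at 10.98, in GmaAffx.79985.1.S1_at, and its stage score was -2.58. Without it the differences were 2.65 (SE 0.96, adjusted p = 0.0731) and 1.15 (SE 0.46, adjusted p = 0.104). The change of the stage difference between years was itself not called, at -5.21 (SE 1.94, adjusted p = 0.551) in Archer and -4.06 (SE 1.94, adjusted p = 0.213) in Minsoy for Gma.10026.1.S1_at.

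In the recombinant lines CIF1 rose by 4.76 (SE 0.97, adjusted p = 0.000204) in Gma.10026.1.S1_at and by 2.52 (SE 0.49, adjusted p = 0.00011) in GmaAffx.79985.1.S1_at. The high yield line had 8.10, 7.17 and 8.18 at 5-6 mm against 1.94, 1.91 and 1.91 at 2 mm in the first of these, and the low yield line had 8.71, 9.91 and 8.40 against 6.96, 3.12 and 6.09. The stages did not overlap in either line. Without the low yield array against its label the differences were 5.15 (SE 1.04, adjusted p = 0.000111) and 2.68 (SE 0.53, adjusted p = 7.88e-05). Here the later step, 5-6 mm against 3.5 mm, was called in both probe sets, at 3.92 (adjusted p = 0.000911) and 1.85 (adjusted p = 0.00158). Without 4 arrays of 3.5 mm seeds that are described with the actin control values, the first was 3.73 (adjusted p = 0.0604), no longer called, and the second was 2.31 (adjusted p = 0.0282). The cell wall invertase gene CWINV, which encodes an enzyme of the kind that CIF1 inhibits, was between 1.96 and 2.32 over all 54 arrays and was not tested.

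PGM was the 1 member gene that fell with stage in all 3 sets, on its tested probe set Gma.3537.1.S1_at. In 2007 Archer read 9.20, 9.03 and 9.22 at 2 mm, 8.71, 9.06 and 8.58 at 3.5 mm, and 8.46, 8.26 and 8.39 at 5-6 mm. Minsoy read 8.90, 8.88 and 9.35 at 2 mm, 8.80, 8.87 and 8.07 at 3.5 mm, and 8.04, 6.49 and 7.42 at 5-6 mm. All 5-6 mm arrays lay below all 2 mm arrays of their variety, and the 5-6 mm arrays of Minsoy lay below those of Archer. The stage difference was -1.25 (SE 0.16, adjusted p = 1.76e-07) over both varieties, -0.78 (SE 0.23, adjusted p = 0.0106) in Archer and -1.73 (SE 0.23, adjusted p = 3.35e-06) in Minsoy. The change of the line difference between these stages was not called, at 0.95 (SE 0.33, adjusted p = 0.238). Over both varieties the fall was called for the later step, at -0.84 (SE 0.16, adjusted p = 0.00276), where again 20.9% of all probe sets were called, and not for the earlier, at -0.41 (SE 0.16, adjusted p = 0.0673).

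PGM fell by 0.61 (SE 0.16, adjusted p = 0.0214) in the parents of 2008 and by 0.60 (SE 0.16, adjusted p = 0.00385) in the recombinant lines. In 2008 Archer had 8.38, 8.30 and 8.37 at 5-6 mm against 9.12, 8.90 and 9.17 at 2 mm, without overlap, and Minsoy had 8.90, 9.06 and 8.09 against 8.97, 9.40 and 9.18, with overlap. The high yield line had 9.20, 9.13 and 9.45 at 5-6 mm against 9.83, 9.79 and 10.09 at 2 mm, and the low yield line had 9.15, 8.81 and 9.12 against 9.37, 9.72 and 9.65. Neither recombinant line overlapped between these stages. Without the arrays against their label the differences were -0.71 (adjusted p = 0.00266) in 2008 and -0.65 (adjusted p = 0.00244) in the recombinant lines. The call of 2008 was lost when Minsoy 2 mm replicate 2 was left out (-0.55, adjusted p = 0.112), and likewise for Minsoy 2 mm replicate 3 (-0.61, adjusted p = 0.0907), 5-6 mm replicate 2 (-0.70, adjusted p = 0.0658) and 5-6 mm replicate 3 (-0.46, adjusted p = 0.119).

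The 3 probe sets of GBSSIa rose in all of the 3 sets, except GmaAffx.87290.1.S1_at in 2008, whose difference of 1.02 had an adjusted p of 0.0929. GmaAffx.64124.1.S1_at read 11.02, 11.22 and 11.51 in Archer of 2007 at 2 mm, 11.48, 11.62 and 11.94 at 3.5 mm, and 12.33, 13.06 and 12.71 at 5-6 mm. In Minsoy of 2007 it read 11.89, 11.57 and 11.16 at 2 mm, 12.23, 11.78 and 12.68 at 3.5 mm, and 12.75, 13.25 and 13.23 at 5-6 mm. In both varieties the 5-6 mm arrays lay above all others and the younger stages overlapped. Its difference was 1.49 (SE 0.26, adjusted p = 1.24e-05), and the later step of 0.93 (SE 0.26, adjusted p = 0.0126) was called while the earlier step of 0.56 (SE 0.26, adjusted p = 0.122) was not. Gma.17374.1.S1_at differed by 2.21 (SE 0.49, adjusted p = 0.000272) and GmaAffx.87290.1.S1_at by 2.13 (SE 0.41, adjusted p = 4.65e-05).

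In the parents of 2008 GBSSIa differed by 1.01 (SE 0.26, adjusted p = 0.0186) in GmaAffx.64124.1.S1_at and by 1.73 (SE 0.49, adjusted p = 0.0242) in Gma.17374.1.S1_at. Archer read 13.17, 12.90 and 12.85 at 5-6 mm against 11.39, 11.72 and 11.61 at 2 mm in GmaAffx.64124.1.S1_at, and Minsoy read 11.66, 12.95 and 13.51 against 13.27, 11.68 and 11.30. The 2 outlying Minsoy values, 11.66 and 13.27, belonged to the arrays against their label. Without them GmaAffx.64124.1.S1_at differed by 1.57 (SE 0.20, adjusted p = 3.32e-07), Gma.17374.1.S1_at by 2.66 (SE 0.44, adjusted p = 1.18e-05) and GmaAffx.87290.1.S1_at by 1.59 (SE 0.40, adjusted p = 0.00184). The calls with all arrays were lost without any 1 of Minsoy replicates 2 and 3 at 2 mm or 5-6 mm, where GmaAffx.64124.1.S1_at differed by 0.81 to 0.95 and Gma.17374.1.S1_at by 1.45 to 1.53. For Gma.17374.1.S1_at the call of 2008 was also lost without Archer 2 mm replicate 1 or 5-6 mm replicate 1, at 1.68 each. Between the recombinant stages the differences were 0.86 (SE 0.26, adjusted p = 0.00802) in GmaAffx.64124.1.S1_at, 1.38 (SE 0.49, adjusted p = 0.0234) in Gma.17374.1.S1_at and 1.51 (SE 0.41, adjusted p = 0.0035) in GmaAffx.87290.1.S1_at. For GmaAffx.64124.1.S1_at the high yield line had 13.43, 13.52 and 13.71 at 5-6 mm against 12.64, 12.64 and 11.91 at 2 mm, and the low yield line had 13.01, 13.44 and 13.39 against 13.33, 12.51 and 12.30. Only the low yield line overlapped, through the 2 mm array at 13.33 that went against its label. The recombinant call of Gma.17374.1.S1_at was lost, with differences between 1.03 and 1.29, without replicate 3 of either line at 2 mm or at 5-6 mm, or without low yield 5-6 mm replicate 2.

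BMY2 was called higher at 5-6 mm in the parents of 2007, by 1.57 (SE 0.54, adjusted p = 0.0146) in Gma.16670.1.S1_at and by 1.76 (SE 0.56, adjusted p = 0.0087) in GmaAffx.89961.1.S1_s_at. Gma.16670.1.S1_at read 6.06, 6.35 and 6.02 in Archer at 5-6 mm against 4.72, 5.50 and 5.42 at 2 mm, and 7.35, 6.96 and 9.69 in Minsoy against 5.92, 5.50 and 5.96. The stages did not overlap in either variety, but Minsoy replicate 3, at 9.69, lay far above the rest. Without it the difference was 1.15 (adjusted p = 0.0779), while that of GmaAffx.89961.1.S1_s_at was 1.35, the lowest of 25 alternative settings, in all of which it stayed called. Taken alone, Minsoy was called at 2.20 (SE 0.77, adjusted p = 0.019) and Archer was not. In 2008 BMY2 differed by 0.18 and 0.10 (adjusted p = 0.874 and 0.939) and in the recombinant lines by 0.69 and 0.80 (adjusted p = 0.329 and 0.267). The difference of the stage change between years was not called in either variety, at -1.56 (SE 1.09, adjusted p = 1) in Archer and -1.22 (SE 1.09, adjusted p = 0.525) in Minsoy for Gma.16670.1.S1_at.

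High BMY2 values came in single arrays of several groups. In Gma.16670.1.S1_at replicate 3 of Minsoy 2007 had 8.26 at 3.5 mm, replicate 3 of Minsoy 2008 had 8.39 at 5-6 mm, and the low yield line had 9.87 in replicate 3 at 3.5 mm and 9.90 in replicate 2 at 5-6 mm. The other arrays of those groups were at 6.00 and 5.47, at 6.50 and 5.00, at 6.71 and 6.94, and at 6.86 and 7.08. The untested BMY2 probe set GmaAffx.89961.1.S1_at lay at the floor of 1.96 in 16 of the 18 parental arrays of 2007, and reached 8.13 in Minsoy 5-6 mm replicate 3 and 4.19 in Minsoy 3.5 mm replicate 3. It reached 5.51 in the low yield 5-6 mm replicate 2 and was between 1.49 and 1.91 in the other recombinant arrays.

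GOLS was low in most arrays, and its probe set Gma.5637.1.S1_at reached 5 in 7 of the 54, of which 6 were at 5-6 mm and 1 at 2 mm. It passed the filter through the stage where it is high, so its stage calls are given as a description and support nothing. It is 1 of the 3 higher probe sets counted in 2008 above, and 1 of the 5 counted without the arrays against their label. The same limit holds for its calls in the counts by line and by step below. In 2008 it read 4.23, 7.06 and 4.28 in Archer at 5-6 mm against 3.83, 4.23 and 4.02 at 2 mm, and 4.25, 5.23 and 7.39 in Minsoy against 4.63, 3.28 and 4.16. Single arrays were high at 5-6 mm, the stages met at 4.23 in Archer and they overlapped in Minsoy. The difference of 1.38 (SE 0.40, adjusted p = 0.0274) was called, and so was that of 1.87 (SE 0.42, adjusted p = 0.000698) without the arrays against their label. It was 0.91 (adjusted p = 0.108) without Archer 5-6 mm replicate 2 and 0.94 (adjusted p = 0.161) without Minsoy 5-6 mm replicate 3. The call was also lost without Archer 2 mm replicates 1 or 3, Minsoy 2 mm replicates 2 or 3, or Minsoy 5-6 mm replicate 2, with differences between 1.19 and 1.48.

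In 2007 GOLS read 3.82, 3.87 and 3.94 in Archer at 5-6 mm against 3.82, 4.46 and 3.81 at 2 mm, and 4.29, 5.04 and 6.59 in Minsoy against 3.79, 3.82 and 5.08. The difference of 0.46 (SE 0.40, adjusted p = 0.342) was not called. In the recombinant lines, where it was 0.53 (SE 0.40, adjusted p = 0.303), 1 of the 18 arrays, low yield 5-6 mm replicate 2, reached 5, at 5.11. That array and replicate 3 of Minsoy at 5-6 mm, in 2007 as in 2008, were the highest of their groups in both GOLS and BMY2, as was Archer 5-6 mm replicate 2 of 2008, with 7.06 in GOLS and 7.11 in Gma.16670.1.S1_at of BMY2.

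**Figure D2:**
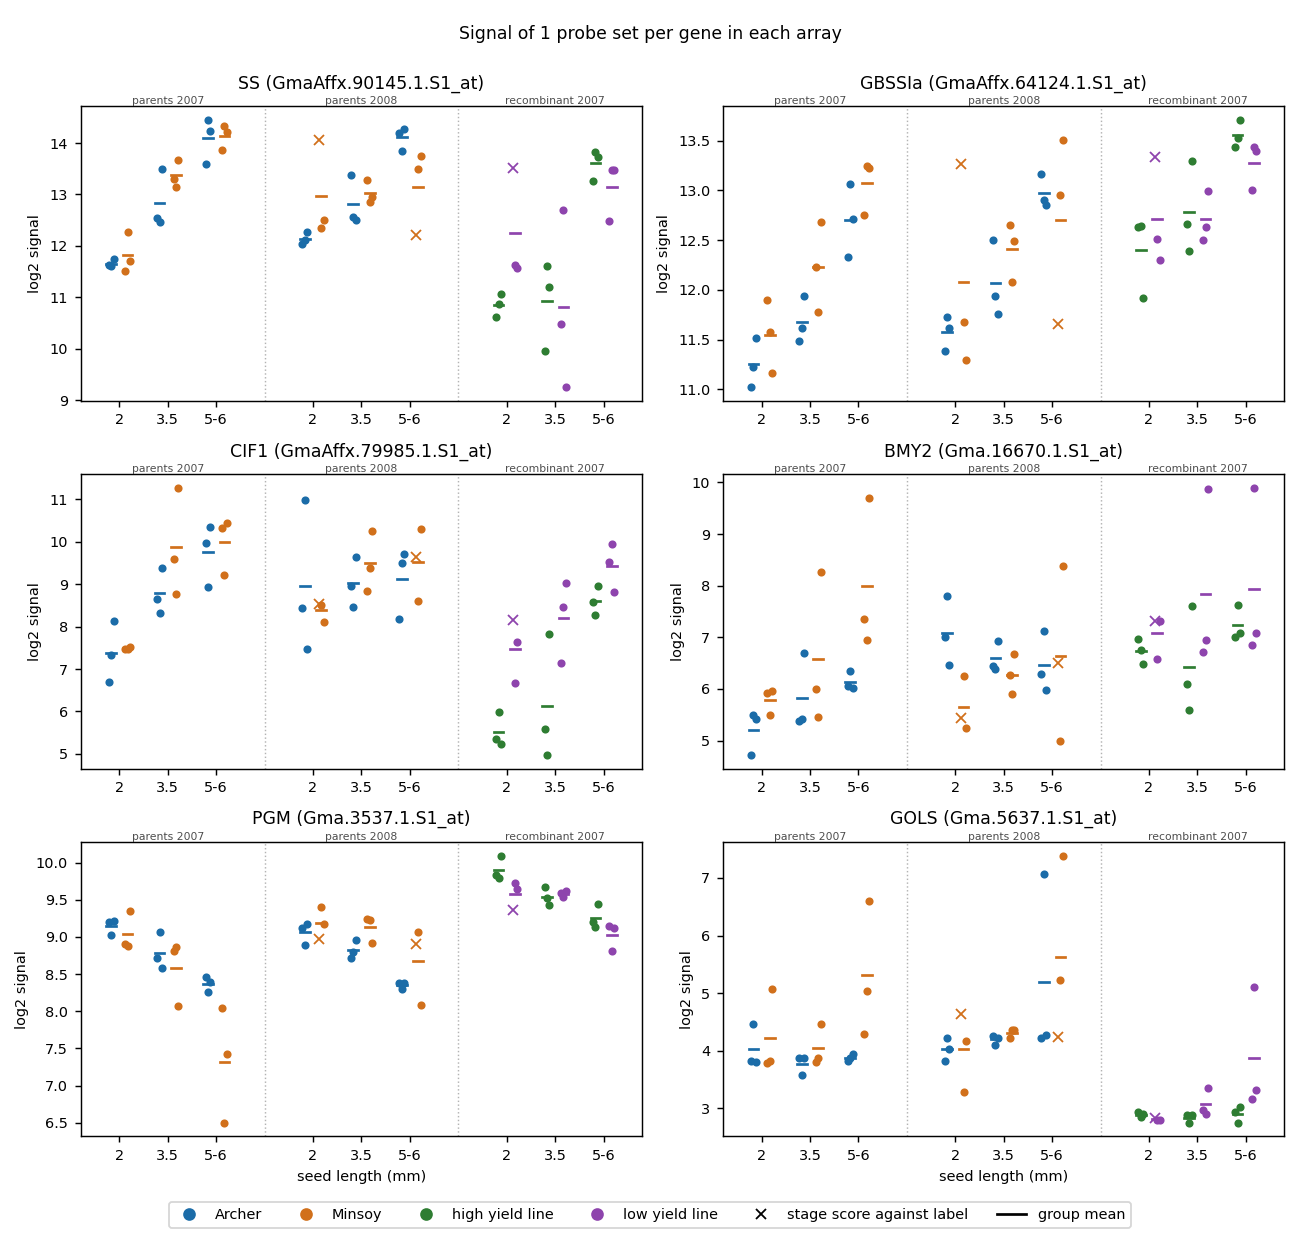
Log2 signal (y axis) of 1 probe set for each of the 6 genes in every array, by seed length (x axis), for the parents of 2007, the parents of 2008 and the recombinant lines, which have separate scales. Points are arrays, short lines are means of 3 arrays, and crosses are the 3 arrays whose stage score went against the label; in the parents of 2007 SS and GBSSIa climb and PGM declines with seed length, while CIF1, BMY2 and GOLS have single arrays far from their group, such as Minsoy 2007 at 5-6 mm at 9.69 in BMY2.

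Taken line by line, the stage calls were unevenly spread. Between 5-6 mm and 2 mm, 8 of the 12 probe sets were higher and 1 lower in Archer of 2007, against 29.5% of all probe sets called, and 9 and 1 in Minsoy of 2007, against 43.6%. In Archer of 2008, 4 were higher and 1 lower, against 10.7%. In Minsoy of 2008 limma called 0 of the 12, against 0.0% of all, with 2 of the 12 and 1435 of all at an unadjusted p under 0.05. Without its arrays against their label it called 4 in Minsoy, against 20.1% of all, and these were GOLS and the 3 GBSSIa probe sets, all higher. In the high yield line 7 were higher and 1 lower, against 39.0%. In the low yield line limma called 0, against 0.306%, with 3 of the 12 and 4354 of all at an unadjusted p under 0.05. Without the array against its label it called 4 in that line, against 19.7% of all, and these were both CIF1 probe sets, GmaAffx.64124.1.S1_at of GBSSIa and GmaAffx.90145.1.S1_at of SS, all higher. Averaged over both parents, the single steps of 2008 gave 0 member calls by limma and 0 calls among all probe sets, with 1 member at an unadjusted p under 0.05 for 3.5 mm against 2 mm and 3 for 5-6 mm against 3.5 mm. Without the arrays against their label, 2 members were higher at 3.5 mm than at 2 mm, against 6.91% of all, and these were Gma.17374.1.S1_at and GmaAffx.64124.1.S1_at of GBSSIa, at 1.49 (adjusted p = 0.0224) and 0.71 (adjusted p = 0.0174). At 5-6 mm against 3.5 mm 2 were then higher, against 9.73% of all, GmaAffx.64124.1.S1_at at 0.87 (adjusted p = 0.00445) and GOLS at 1.49 (adjusted p = 0.0171). The change of the line difference between 2 mm and 5-6 mm was called by limma for 0 members in each set, against 0.136% of all in the parents of 2007, 0.0% in the parents of 2008 and 1.18% in the recombinant lines. At an unadjusted p under 0.05 were 1, 2 and 2 member probe sets in these sets, against 12.1%, 6.18% and 15% of all. Without the arrays against their label these were 1, 0 and 0, against 14.5%, 4.63% and 9.21% of all. The difference of the stage change between the years was called for 0 members in Archer, against 0.147% of all, and for 0 in Minsoy, against 0.514%. Without the arrays against their label limma again called 0 in Minsoy, with 9 of all probe sets called rather than 136.

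Among the 6 genes few line differences were called, for PGM between the parents in 2007 and for 1 of the 2 CIF1 probe sets between the recombinant lines. As counts of the 12 probe sets over the stages, these lie near the shares of all probe sets called. Averaged over the stages, 1 of the 12 probe sets, PGM, was higher in Archer than in Minsoy in 2007, against 9.09% of all probe sets called. In 2008 limma called 0, against 2.96%, with 0 at an unadjusted p under 0.05. Between the high and the low yield line 1 probe set, of CIF1, was lower in the high yield line, against 5.37%. At single stages, with all arrays, PGM at 5-6 mm in 2007 was the 1 member probe set with a called line difference, where 6.91% of all were called. Without the 4 recombinant arrays of 3.5 mm seeds described below, which enter a 2 mm comparison only through the shared spread, 3 were called lower in the high than in the low yield line at 2 mm, against 13.5% of all. These were GmaAffx.90145.1.S1_at and GmaAffx.90145.1.S1_s_at of SS, at -1.39 (adjusted p = 0.0233) and -0.52 (adjusted p = 0.0378), and GmaAffx.79985.1.S1_at of CIF1, at -1.96 (adjusted p = 0.036). With all arrays these differences were of the same size, with adjusted p of 0.107, 0.356 and 0.0717. Both fits use the low yield 2 mm array against its label, at 13.52 in GmaAffx.90145.1.S1_at, where replicates 2 and 3 read 11.63 and 11.58. At 2 mm, 4 of the 12 were at an unadjusted p under 0.05 with all arrays, where 22% of all were. Without the arrays against their label it was 1, where 16% of all were, and limma called 0. In the parents of 2007 the share of all called was 2.08% at 2 mm and 1.47% at 3.5 mm, in those of 2008 it was 0.717%, 0.589% and 0.914% by increasing seed length, and between the recombinant lines 7.87%, 1.66% and 0.0%.

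The PGM difference between Archer and Minsoy in 2007 was 0.45 over the stages (SE 0.13, adjusted p = 0.0266). At 5-6 mm it was 1.05 (SE 0.23, adjusted p = 0.00591), with Archer at 8.46, 8.26 and 8.39 and Minsoy at 8.04, 6.49 and 7.42, without overlap. At 3.5 mm it was 0.20 (adjusted p = 0.912) and at 2 mm 0.10 (adjusted p = 1), with overlapping arrays at both. Without Minsoy replicate 2, at 6.49, the difference was 0.64 at 5-6 mm (adjusted p = 0.117) and 0.31 over the stages (adjusted p = 0.0973). The call over the stages was also lost without Minsoy 3.5 mm replicate 3 (0.37, adjusted p = 0.103) and, at 0.41 to 0.44, without Archer 2 mm replicate 3, 3.5 mm replicate 2 or 5-6 mm replicate 1, or Minsoy 2 mm replicates 1 or 2. Stage scores of Archer were -0.86, -1.16 and 1.48 at 3.5 mm and 2.44, 2.83 and 2.66 at 5-6 mm, against 1.75, 1.22 and 2.73 and 3.09, 2.76 and 2.83 in Minsoy, and their part in the PGM difference was not tested. In 2008 the line difference was -0.25 over the stages (SE 0.13, adjusted p = 0.468), and at 5-6 mm -0.33 (adjusted p = 0.743). The change of the line difference between the years was -0.70 (SE 0.19, adjusted p = 0.0466), with 1.47% of all probe sets called. With the replicate number as a block it was the same size with an adjusted p of 0.0611, and without the arrays against their label the adjusted p was 0.0643.

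CIF1 was lower in the high yield line than in the low yield line. In GmaAffx.79985.1.S1_at the high yield line read 5.34, 6.00 and 5.24 at 2 mm against 8.15, 6.67 and 7.63 in the low yield line, without overlap. At 3.5 mm it read 5.58, 4.97 and 7.82 against 7.15, 8.46 and 9.03, and at 5-6 mm 8.59, 8.28 and 8.95 against 9.52, 9.95 and 8.83, with 1 high yield array inside the low yield range at each. Over the stages the difference was -1.63 (SE 0.40, adjusted p = 0.00763), and -1.51 (SE 0.42, adjusted p = 0.0221) without the low yield array against its label, where 6.4% of all probe sets were called. The low yield value of 9.03 at 3.5 mm is from the array whose description names the high yield line. Without that array 2131 of all probe sets were called for this line difference, against 1421 with all arrays. The call of GmaAffx.79985.1.S1_at was kept in all 26 alternative settings, which include leaving that array out. Gma.10026.1.S1_at, at -2.32 (SE 0.79, adjusted p = 0.083), was not called. Stage scores of the high yield line were -5.32, -5.37 and -4.85 at 2 mm and -1.69, -3.34 and 2.31 at 3.5 mm, against 3.60, -3.04 and -3.58 and -0.84, 1.76 and -0.51 in the low yield line. CIF1 rose with stage in this set, and the part of these scores in the line difference was not tested. The parents differed in GmaAffx.79985.1.S1_at by -0.48 (SE 0.40, adjusted p = 0.504) in 2007 and by -0.09 (SE 0.40, adjusted p = 0.975) in 2008.

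No line difference of SS or GBSSIa over the stages was called. In GmaAffx.90145.1.S1_at of SS the difference was -0.25 (SE 0.31) for Archer against Minsoy in 2007, -0.03 (SE 0.31) in 2008 and -0.28 (SE 0.31) for the high against the low yield line. In GmaAffx.64124.1.S1_at of GBSSIa it was -0.41 (SE 0.21), -0.19 (SE 0.21) and 0.01 (SE 0.21). For BMY2 (Gma.16670.1.S1_at) Archer differed from Minsoy by -1.06 (SE 0.44, adjusted p = 0.138) in 2007 and by 0.53 (SE 0.44, adjusted p = 0.735) in 2008, and the high from the low yield line by -0.82 (SE 0.44, adjusted p = 0.384). The change of the BMY2 line difference between the years was 1.59 (SE 0.63, adjusted p = 0.287).

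**Figure D3:**
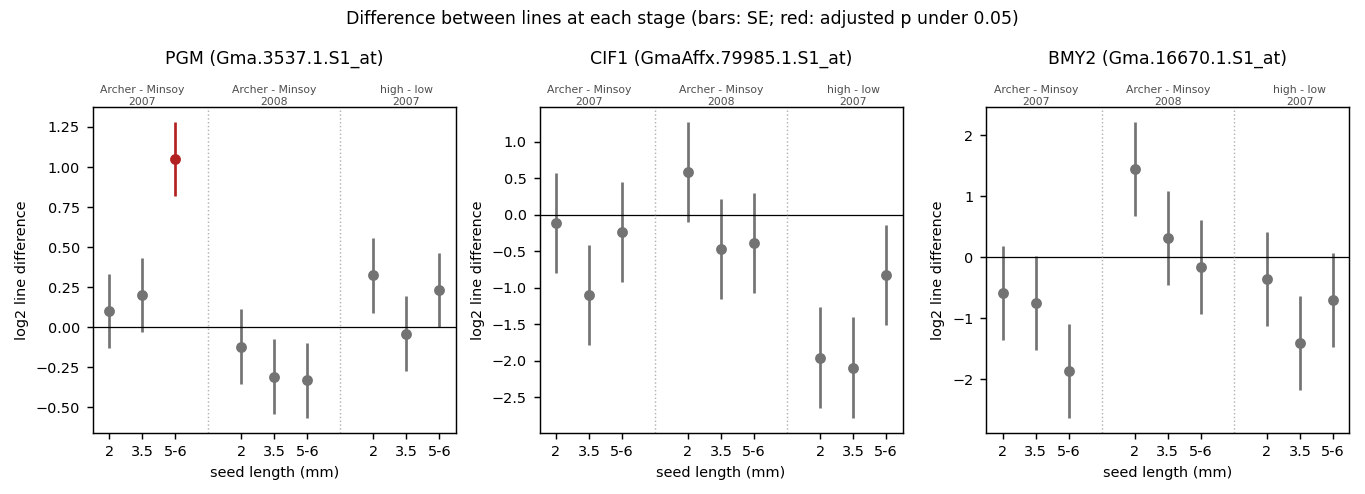
Log2 difference between lines at each seed length (y axis; Archer minus Minsoy in 2007 and 2008, high minus low yield line in 2007) for PGM, CIF1 and BMY2, with bars for the SE and red for an adjusted p under 0.05. The PGM value of 1.05 at 5-6 mm in 2007 is the only red point, and CIF1 is below 0 at all 3 stages of the recombinant lines.

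Of the 6 arrays of 3.5 mm seeds of the recombinant lines, 4 stood apart in 1 of the 2 actin control pairs of the array. The difference between the 3′ and the 5′ probe set of a control transcript is commonly used to follow shortening of RNA from its 5′ end. In the actin pair whose names begin with AFFX-r2 it was 3.07, 1.74 and 2.96 in the high yield line at 3.5 mm and 3.30, 1.38 and 3.36 in the low yield line. It was between 1.22 and 2.32 in the recombinant arrays of the other stages, so replicate 2 of each line lay within their range, and below 0 in all parental arrays. In the other actin pair it was 9.33, 9.11 and 9.52 in the high yield line at 3.5 mm and 8.80, 8.90 and 8.75 in the low yield line, between 8.95 and 9.28 at the other stages, and between 9.95 and 10.46 in the parental arrays. By this pair replicates 1 and 3 of the high yield line lay above the range of the other stages, and all 3 arrays of the low yield line lay below it. The actin difference named from here on is that of the AFFX-r2 pair. At 3.5 mm against 2 mm limma called 2 member probe sets, both lower, against 30.4% of all probe sets: GmaAffx.90145.1.S1_s_at of SS at -1.0 (SE 0.23, adjusted p = 0.00158) and GmaAffx.87290.1.S1_at of GBSSIa at -1.12 (SE 0.41, adjusted p = 0.0348). Within the low yield line, where 14.1% of all were called, they were -1.21 (adjusted p = 0.0162) and -1.82 (adjusted p = 0.0322). These contrasts use the low yield 2 mm array against its label. Without it they were -0.89 (adjusted p = 0.00588), still called, and -0.83 (adjusted p = 0.0876) over both lines, against 31.6% of all probe sets called. Within the low yield line limma then called 0 members, against 9.13% of all, with 2 of the 12 and 7543 of all at an unadjusted p under 0.05, and these 2 were the same probe sets, at -1.0 (adjusted p = 0.068) and -1.24 (adjusted p = 0.136). The SS probe set read 12.55, 14.12 and 12.89 in the high yield line at 3.5 mm and 12.97, 14.64 and 12.24 in the low yield line. The GBSSIa probe set read 8.57, 9.97 and 9.46 in the high yield line and 7.54, 11.03 and 7.56 in the low yield line. In both probe sets and both lines replicate 2, the array with the smallest actin difference, was the highest. Without the 4 arrays with an actin difference above 2.5, which left 1 array per line at this stage with the spread taken from the other groups, the differences were 0.14 (SE 0.17, adjusted p = 0.938) and 0.36 (SE 0.44, adjusted p = 0.945).

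The step from 3.5 mm to 5-6 mm in the recombinant lines rested on the same arrays. With all arrays 6 member probe sets were higher and 1 lower, against 58.2% of all probe sets. GmaAffx.90145.1.S1_at of SS rose by 2.51 (SE 0.38, adjusted p = 5.13e-06) and GmaAffx.87290.1.S1_at of GBSSIa by 2.63 (SE 0.41, adjusted p = 6.76e-06). Without the 4 arrays, where 7.97% of all were called, they differed by 1.23 (SE 0.42, adjusted p = 0.06) and 1.15 (SE 0.44, adjusted p = 0.089). GmaAffx.64124.1.S1_at of GBSSIa was highest in replicate 3 of both lines, with 12.67, 12.39 and 13.29 in the high yield line at 3.5 mm and 12.50, 12.64 and 13.00 in the low yield line, and its step was 0.67 with all arrays (adjusted p = 0.0261) and 0.91 without the 4 (adjusted p = 0.109). The CIF1 line difference was -2.09 (SE 0.47, adjusted p = 0.00346) in GmaAffx.79985.1.S1_at without the 4 arrays, and that of Gma.10026.1.S1_at was then called, at -3.43 (SE 0.95, adjusted p = 0.0172), against 10.1% of all. The 5-6 mm against 2 mm contrasts use the 3.5 mm arrays only for the shared spread.

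**Figure D4:**
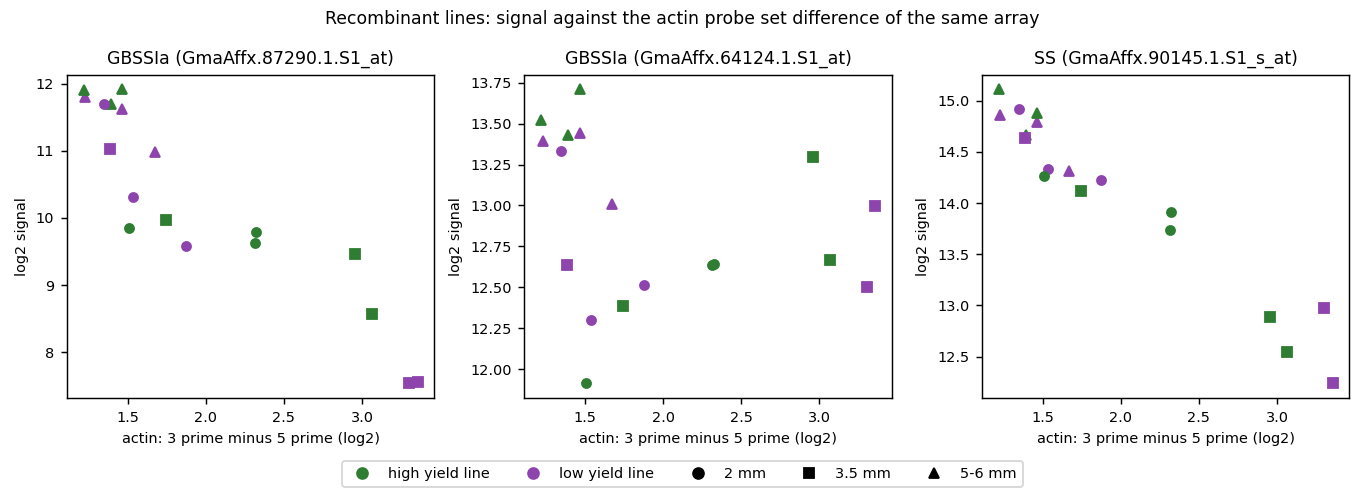
Log2 signal (y axis) of 2 GBSSIa probe sets and 1 SS probe set against the log2 difference between the 3′ and 5′ probe sets of 1 of the 2 actin control pairs (x axis) in the 18 arrays of the recombinant lines, with colour for the line and shape for the seed length. GmaAffx.87290.1.S1_at of GBSSIa (as low as 7.54) and GmaAffx.90145.1.S1_s_at of SS (as low as 12.24) are lowest in the 3.5 mm arrays with actin differences near or above 3, and GmaAffx.64124.1.S1_at of GBSSIa is not.

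Probe sets of 1 gene followed each other to different degrees over the 54 arrays, after centring on the mean of each set. For BMY2, Pearson's r between the tested probe sets was 0.96, and for CIF1 it was 0.93. Within GBSSIa r was 0.96 between Gma.17374.1.S1_at and GmaAffx.64124.1.S1_at, and 0.63 and 0.75 between each of these and GmaAffx.87290.1.S1_at. Within SS it was 0.88 between the probe sets whose names share the number 90145, and 0.71 and 0.48 between each of these and Gma.1828.1.S1_at. These are descriptions over arrays that share stages and lines.

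Other genes of the same pathways had few symbols on this array. With 1 probe set for each of the 8 tested genes of the pathway list, 5 were higher and 2 lower at 5-6 mm in the parents of 2007, against 53.4% of all probe sets called, 2 and 1 in 2008, against 11.2%, and 4 and 2 in the recombinant lines, against 39.3%. The 6 members are among these 8 genes. GOLS is 1 of the 2 higher in 2008, and the limit given for its stage calls holds here too. Beyond the members, these are MIPS and MIPS4, of myo-inositol-phosphate synthase, the enzyme that makes the inositol on which galactinol synthesis draws. MIPS rose by 0.36 (SE 0.10, adjusted p = 0.00261) in the parents of 2007 and by 0.42 (SE 0.10, adjusted p = 0.00101) in the recombinant lines, and differed by 0.18 (adjusted p = 0.228) in the parents of 2008. MIPS4 fell by 0.94 (adjusted p = 0.00026) and by 0.80 (adjusted p = 0.00239) in the parents of 2007 and the recombinant lines, and differed by -0.48 (adjusted p = 0.124) in the parents of 2008. The names of the probe sets used for MIPS and MIPS4 share the same number, with the suffixes _a_at and _x_at. Whether these probe sets measure the genes separately was not tested. MIPS has 2 tested probe sets, of which 1 is given here. Several arrays hold the same MIPS4 value, such as 13.11 in all 3 Archer arrays of 2008 at 5-6 mm.

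By Pearson correlation over the 18 group means, each centred on its set, the annotated genes most like the highest-signal probe set of each member were as follows. SS, by its probe set Gma.1828.1.S1_at, was most like GSTU47 (r = 0.87), SWEET31 (0.86), of the SWEET sugar transporter family, and PDS1 (0.86). This is the SS probe set near the top of the scale, and its r with the other SS probe sets over the arrays was 0.71 and 0.48. Genes most like the SS probe sets that moved further with stage were not listed. CIF1 was most like PRP3 (0.93), a proline-rich protein of the cell wall, IFR1 (0.92) and WRKY51 (0.90). PGM was most like APX1 (0.95), an ascorbate peroxidase, SEOA (0.94), of the sieve element occlusion family, and IQD53 (0.93). GBSSIa was most like the isoflavone synthase IFS2 (0.99), the seed maturation protein PM30 (0.98) and the lipoxygenase LOX3 (0.98). BMY2 was most like NAC3 (0.90) and NAC27 (0.89), of the NAC transcription factors, and ICL1 (0.89). GOLS was most like SBP65 (0.89), a biotinylated seed protein, MP2 (0.87) and PM3 (0.87). The group means share stages, lines and arrays, and these likenesses are a description.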

How the data were processed

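Total RNA of whole soybean seeds was measured on 54 arrays, 3 for each of 18 groups. As deposited, values are log2 signals from GCRMA, per the submitters' processing notes; its version is not given in the sources used here. The lowest values differ between the parents of 2007 (1.96), the parents of 2008 (1.96) and the recombinant lines (-1.56), so levels were compared only within each set. The 174 control probe sets were left out of the tests. The annotation gave 1 gene symbol to 8677 probe sets, several to 370 and none to 28523. Probe sets at log2 5 or more in at least 3 arrays (26482) entered 1 model with a mean per group, in R 4.3.3 with limma 3.58.1 (lmFit, eBayes, Benjamini-Hochberg adjustment, threshold 0.05). The pipeline was tested on simulated data. The number of arrays limits the precision. Labels call the samples of 2007 independent, but those of a line came from a single row, so they do not measure the spread between rows. Each p-value uses 1 spread per probe set that is shared over all 18 groups, those of 2008 included.

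Every probe set with a member symbol is named. Other pathway genes came from a list of symbol beginnings, from which PGMPM10, PGMPM18, PGMPM19, PGIP and PGIP4, unrelated genes with the same first letters, were dropped. Members and lists were chosen with earlier results of these data known. The stage score used 200 probe sets each way, without members, and the rule for arrays against their label (2 mm above, or 5-6 mm below, the median 3.5 mm score of the set) and the threshold of 2.5 on 1 of the 2 actin pairs were chosen after the data had been seen. Planting replicates pair the arrays of 2008 per the labels. Residuals of Archer and Minsoy arrays of the same number and stage correlated between -0.25 and 0.48. Alternatives were no filter or a filter at log2 7, quantile normalisation, each set alone, a replicate block, a trended robust eBayes, and leaving out arrays.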

Additional observations from a re-analysis of the deposited data

Results flagged for a closer look

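The line difference of PGM (Gma.3537.1.S1_at) changed between the years in the parents, by -0.70 for 2008 minus 2007 on the log2 scale (SE 0.19, adjusted p = 0.0466 by limma). The Archer minus Minsoy difference was -0.25 in 2008 and 0.45 in 2007. In this change year, set of arrays and planting layout cannot be told apart. With single arrays left out in turn, 36 in all, the change was between -0.82 and -0.57, with adjusted p between 0.0036 and 0.102, and the call was kept in 10 and lost in 26. Among 6 other settings it was kept in 2 and lost in 4. Groups of 3 arrays are too small for the test of single outlying samples.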

How the results depend on the processing

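Counts are of the 12 member probe sets called between 5-6 mm and 2 mm. With each array left out in turn the count was 10 to 11 in the parents of 2007, 0 to 6 in the parents of 2008 and 6 to 9 in the recombinant lines, and for line differences 0 to 2, 0 to 0 and 1 to 2. In 2008 the lowest count came without Minsoy 2 mm replicate 2 and the highest without Minsoy 2 mm replicate 1, where limma called 0 and 6614 of all probe sets, against 2962 with every array. With each set fitted alone the counts were 1 in the parents of 2008 and 5 in the recombinant lines, the line difference of 2007 had 0, and all probe sets called were 1213 for stage in 2008 and 448 for the recombinant line difference. Fewer arrays then share the spread. Without a filter the line difference of 2007 had 2 calls, and without the 4 recombinant arrays of high actin difference the recombinant line difference had 2, with 2662 of all probe sets called. Without the arrays against their label 9060 of all probe sets were called for stage in 2008.

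Results that changed sign came from that actin setting, which left 1 array per line at 3.5 mm. There the change from 2 mm to 3.5 mm was 0.14 over both recombinant lines and 0.14 in the low yield line for GmaAffx.90145.1.S1_s_at of SS. It was 0.36 and 0.50 for GmaAffx.87290.1.S1_at of GBSSIa. Each of these values was smaller than its SE. With all arrays they were -1.0, -1.21, -1.12 and -1.82. With the replicate block, the pairing by planting of 2008 gave 4 calls for stage and 0 for the line, as without it. The block removed the 2008 calls in Archer of SS (Gma.1828.1.S1_at, adjusted p = 0.0543) and of PGM (adjusted p = 0.0565) and that of the PGM year difference (adjusted p = 0.0611). It changed no other call of 2008. In 2007 the numbers are only names; with the block the recombinant count was 9, through SS GmaAffx.90145.1.S1_s_at, the Archer call of SS Gma.1828.1.S1_at was lost (adjusted p = 0.0533) and the low yield step to 5-6 mm of CIF1 Gma.10026.1.S1_at was gained. The cause of these shifts was not tested, and 3 arrays a group limit what can be called.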
